A study of Mus musculus with 4 samples.

Results

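Ubiquitin ligase and deubiquitinase genes were examined in a comparison of open chromatin between Rnf20 knockout and control endothelial cells of the mouse retina. Members were taken by symbol, as every listed peak whose assigned gene begins with Rnf, Trim, Usp, Cul (each followed by a digit), Ube2, Ube3, Fbxl, Fbxo, Fbxw, Klhl, Herc, Otud, Nedd4 or Wwp. The rule found 87 of 6891 listed peaks, assigned to 73 genes. Ligase genes, with their conjugating enzymes and substrate adaptors, held 76 peaks at 64 genes. Deubiquitinase genes (Usp and Otud) held 11 peaks at 9 genes. Usp6nl, which carries a Usp symbol and 2 of these 11 peaks, encodes a GTPase-activating protein with no ubiquitin protease activity, so counts for deubiquitinases are also given without it.

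The knockout library came from pups at postnatal day 7 labelled Pdgf{beta}CreERT2pos Rnf20p/p, which lose floxed Rnf20 where the inducible Cre is active. The Pdgfb promoter drives that Cre mainly in endothelium. The control library came from pups labelled Pdgf{beta}CreERT2neg Rnf20p/p, which carry the same floxed alleles without Cre. Both groups are on C57BL/6 and share 1 strain label, which names the allele Rnf20tm1a(EUCOMM)Wtsi and the transgene Tg(Pdgfb-icre/ERT2). Per the labels' protocols, which make no distinction between the groups, 4-hydroxytamoxifen was injected daily in the first days of life, and cells were captured with CD31 beads before ATAC-seq, which tags accessible DNA with a transposase. The labels of 1 knockout and 1 control library are coherent, while 2 of the 4 libraries carry a title at odds with the genotype field and were left unassigned. The authors' deposited table holds only 1 mean per group, so no error over libraries can be given for any peak, and the sources used here do not say which libraries entered each mean. It lists only peaks with an unadjusted p-value up to 0.0499, so genes without a listed peak cannot be read as unchanged. Of 10 endothelial marker genes 5 had a listed peak, and a list of changed peaks gives no check of the cell type. Each member peak carries 1 gene, assigned with its distance to a start site, which need not be the gene it acts on.

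Ubiquitin is attached to proteins in a relay. An activating enzyme passes it to a conjugating enzyme (the Ube2 genes), and a ligase then places it on the substrate. RING ligases, which include most Rnf and Trim genes, hold the conjugating enzyme and the substrate together. HECT ligases (Nedd4, Nedd4l) instead carry ubiquitin on themselves first. Cullins are scaffolds that join a RING protein to exchangeable substrate adaptors, such as the F-box proteins and the BTB-kelch proteins (Klhl). Deubiquitinases of the Usp and Otud families remove the mark. RNF20 is itself a RING ligase, which ubiquitinates histone H2B, and ubiquitin turnover of Notch, VEGF receptors and HIF shapes vessel sprouting.

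The authors' false discovery rate (FDR) for a difference in accessibility was under 0.05 at 4 of the 87 peaks (4.6%, against 3.02% of all listed peaks). The threshold of 0.05 was set here. Of the 4, 2 were higher in knockout cells (1.29% of all listed peaks were called higher) and 2 were lower (1.73%). The ligase-side genes, Trim61, Fbxw18 and Fbxo11, and 1 deubiquitinase gene, Otud4, held them. Among all 87 peaks, 51 had a positive log2 fold (knockout minus control) and 36 a negative one (41.4%, against 37.9% of all listed peaks). The positive share was 58.6% (95% Wilson interval 48.1% to 68.4%, counting error only), against 62.1% of all listed peaks. In such bulk libraries a different mix of cells and a different accessibility per cell cannot be told apart. Markers of other retinal cells (photoreceptors, amacrine and bipolar cells, glia, pericytes, microglia) had 11 listed peaks at 9 of 22 genes, 3 positive and 8 negative, with a median log2 fold of -1.34 and none called at FDR < 0.05 (all 11 at unadjusted p < 0.05) per the authors' deposited table. Those 11 peaks lay at a median of 5979 bases from a start site, against 23614 bases over all listed peaks. The part of such cells in the results was not tested. Endothelial markers had 11 listed peaks at 5 of 10 genes, 7 positive and 4 negative, with a median log2 fold of 0.87. Of these, 1 was called (9.09%, against 3.02% of all listed peaks), at Fli1 (-1.81, FDR 0.039 per the authors' deposited table). The median log2 fold was 0.91 for the members and 0.93 for all listed peaks. Members were also listed about as often as other genes were, with 73 of 387 protein-coding genes that match the naming rule (18.9%), against 4075 of 21900 protein-coding genes in the RefSeq table (18.6%).

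**Figure D1:**
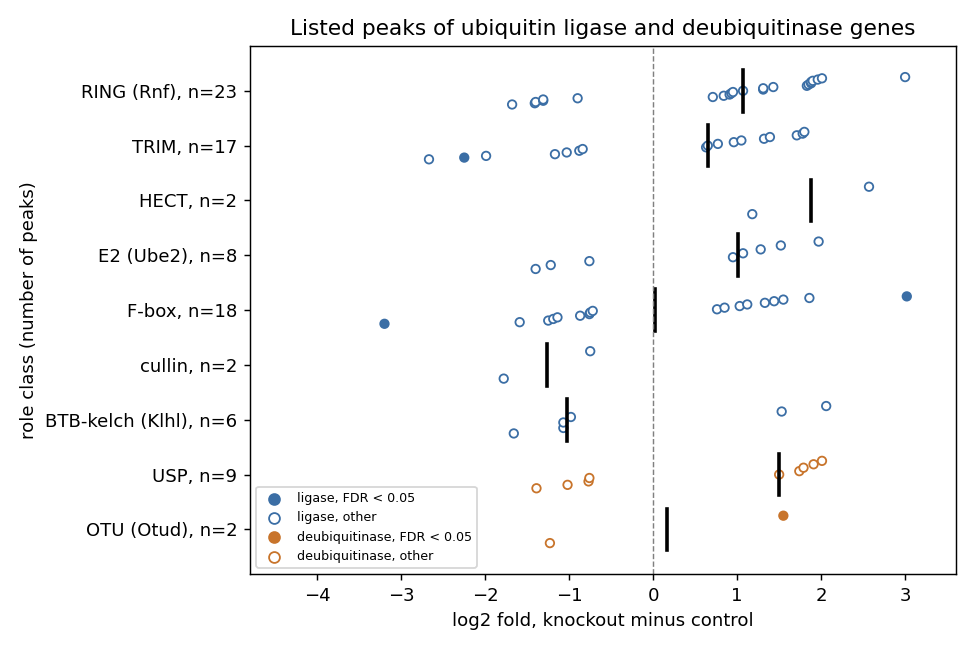
Log2 fold (knockout minus control) of each of the 87 listed peaks in the authors' deposited table, by role class, with a bar at each class median and filled points at FDR < 0.05. RING peaks lie mostly right of 0 (17 of 23), and the 4 filled points are Fbxo11 and Otud4 on the right and Trim61 and Fbxw18 on the left. The folds plotted for Fbxw18 and Rnf11 rest on the lowest value of 1 group's column.

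The TRIM gene Trim61 had the smallest FDR of all members. Its peak lay in intergenic DNA on chromosome 8 (65022478 to 65022838, mm10), 3970 bases from the Trim61 start site. Knockout cells had a log2 signal of 2.34 and control cells 4.59, a difference of -2.25 (FDR 0.0169) per the authors' deposited table. Another listed peak lay within 100 kb, assigned to Apela, with 3.20 in knockout and a control level of 0 (FDR 0.135 per the authors' deposited table). The pair therefore differed in sign, the called peak being lower and its uncalled neighbour listed with a positive fold.

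Fbxw18 and Fbxo11 encode F-box proteins, the adaptors that bring substrates to the Skp1-cullin ligase. FBXO11 is known for the degradation of the transcription factor BCL6. The Fbxw18 peak, in an intron (chromosome 9, 109698083 to 109698231), stood at 0.13 in knockout cells, the lowest value of that column, against 3.34 in control cells (FDR 0.039 per the authors' deposited table). No fold is given there because it depends on that floor. Fbxo11 had 3 listed peaks, all annotated to its first intron on chromosome 17, and they did not share a direction. The called peak (88025314 to 88025488), 39531 bases from the start site, had 3.90 in knockout and 0.88 in control cells, a log2 fold of 3.02 (FDR 0.0454) per the authors' deposited table. At 22307 bases from the start site the levels per the authors' deposited table were 3.02 in knockout and 4.61 in control cells (-1.59, FDR 0.135). At 507 bases they were 6.03 in knockout and 6.75 in control cells (-0.72, FDR 0.322 per the authors' deposited table). Of the 3 peaks assigned to Fbxo11, the far one was thus higher in knockout cells, and the others had negative folds that were not called. Another peak in an Fbxo11 intron, assigned to Msh6, had 2.64 in knockout and 0.51 in control cells (2.14, FDR 0.511 per the authors' deposited table). An intergenic peak assigned to Gm4832, also within 100 kb of the called one, had 2.86 in knockout and 0.67 in control cells (2.19, FDR 0.322 per the authors' deposited table).

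Otud4, a deubiquitinase of the ovarian tumour protease family, held the 1 called peak of the 11 on the deubiquitinase side. It lay in intergenic DNA on chromosome 8 (79553033 to 79553685), 86317 bases from the Otud4 start site. Knockout cells had a log2 signal of 5.38 and control cells 3.84, a difference of 1.55 (FDR 0.0355) per the authors' deposited table. No other listed peak fell within 100 kb of it. The next member, just above the threshold, was an intronic peak of the BTB-kelch gene Klhl32, with 5.49 in knockout and 3.96 in control cells (1.53, FDR 0.0865 per the authors' deposited table). The remaining 82 members had an FDR of 0.107 or more.

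The shares of positive folds among ligases and deubiquitinases had overlapping intervals. The intervals cover counting error only and treat peaks of the same gene as independent, so their overlap is no test. Positive folds were listed at 45 of 76 ligase peaks (59.2%, Wilson interval 48% to 69.6%) and at 6 of 11 deubiquitinase peaks (54.5%, 28% to 78.7%). Without Usp6nl the deubiquitinase count was 4 of 9 (44.4%, 18.9% to 73.3%). The median log2 fold was 0.88 for ligases and 1.50 for deubiquitinases, and it was -0.76 for deubiquitinases without Usp6nl. Member folds lie either at or above 0.63 or at or below -0.72, so with 11 deubiquitinase peaks the removal of 2 turned the sign of the median. Calls at FDR < 0.05 numbered 3 of 76 for ligases (3.95%) and 1 of 11 for deubiquitinases (9.09%), against 3.02% of all listed peaks. The difference between the classes was not tested.

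The 3 deubiquitinase peaks nearest to a start site all had negative folds, as did 68.2% of all listed peaks within 2 kb of one. Usp22, the protease of the SAGA complex that removes ubiquitin from histone H2B, had its peak in its first intron, 481 bases from the start site. The levels per the authors' deposited table were 5.08 in knockout and 6.10 in control cells (-1.02, FDR 0.27). Usp9x, an X-linked protease with many substrates, had 5.49 in knockout and 6.25 in control cells at 1280 bases from its start site (-0.76, FDR 0.394 per the authors' deposited table). Otud7b, an antagonist of NF-kappaB signalling, had 3.06 in knockout and 4.29 in control cells at 822 bases (-1.23, FDR 0.257 per the authors' deposited table). These were all the deubiquitinase peaks within 2 kb of a start site, and none was called, against 1.84% of all listed peaks in that range.

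Farther out the deubiquitinase folds were mixed. Usp2 had 4.28 in knockout and 5.05 in control cells at 7465 bases (-0.77, FDR 0.477 per the authors' deposited table). Usp31 had 4.13 in knockout and 2.40 in control cells at 8959 bases (1.74, FDR 0.146 per the authors' deposited table), and Usp10 had 3.37 in knockout and 1.59 in control cells at 9281 bases (1.79, FDR 0.504 per the authors' deposited table). Usp12, whose product is activated by WD-repeat partners, split between its peaks. Its intronic peak had 2.29 in knockout and 3.68 in control cells (-1.39, FDR 0.449 per the authors' deposited table). Its intergenic peak 102180 bases from the start site had 3.61 in knockout and 1.70 in control cells (1.91, FDR 0.441 per the authors' deposited table). The 2 Usp6nl peaks lay 18 bases apart in an intron of the non-coding gene A230108P19Rik and are hardly independent, at 1.50 (FDR 0.186) and 2.01 (FDR 0.291) per the authors' deposited table. Beyond 2 kb the deubiquitinase peaks thus held both signs, and Usp10 is named beside the rest to complete the set.

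**Figure D2:**
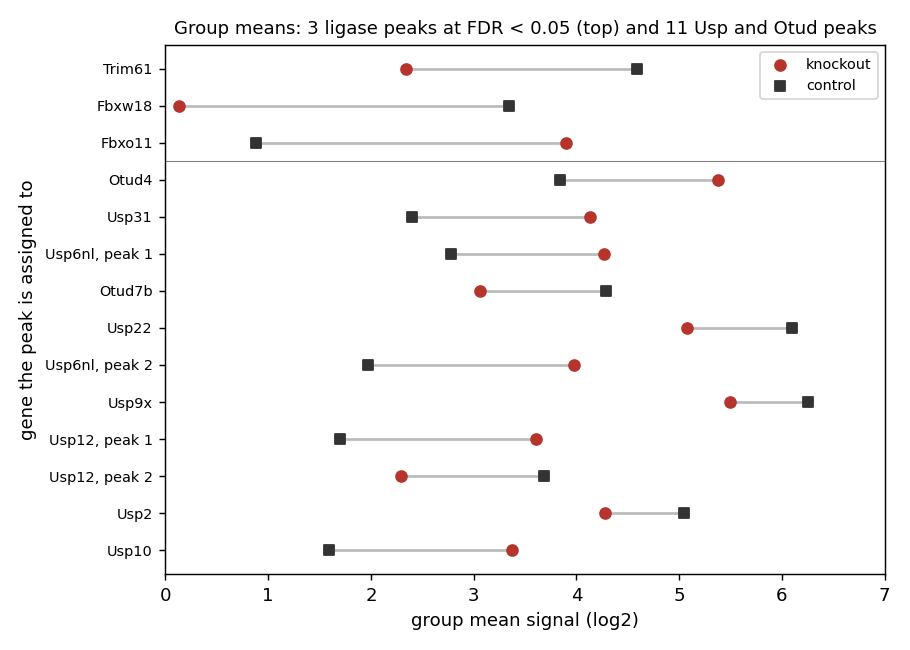
Group mean log2 signal in knockout (circles) and control (squares) for the 3 ligase peaks at FDR < 0.05, above the line, and for all 11 Usp and Otud peaks below it, each ordered by FDR; no error over libraries is available. Knockout lies to the left of control for Trim61, Fbxw18, Otud7b, Usp22, Usp9x, Usp2 and 1 Usp12 peak, and to the right for the others.

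RING ligase genes of the Rnf family were the largest class, with 23 peaks at 18 genes. Positive folds were listed at 17 of the 23 (73.9%, Wilson interval 53.5% to 87.5%, against 62.1% of all listed peaks). Of the 23, 0 were called at FDR < 0.05, against 3.02% of all listed peaks. All 23 had an unadjusted p < 0.05 per the authors' deposited table. The 3' UTR peak of Rnf11 had 3.00 in knockout and a control level listed at 0 (FDR 0.158 per the authors' deposited table), so no fold is given. Rnf19a, a RING-between-RING ligase, had 3 intergenic peaks, all with positive folds of 1.83, 1.31 and 0.95 (smallest FDR 0.242 per the authors' deposited table). Rnf144b, another RING-between-RING ligase, had 3 peaks of both signs. Its intergenic peaks stood at 1.88 (FDR 0.291) and 1.31 (FDR 0.505), and its intronic peak at -1.40 (FDR 0.326), per the authors' deposited table. Rnf24 had an intergenic peak at 1.85 (FDR 0.262 per the authors' deposited table). Negative folds per the authors' deposited table were listed for Rnf125, a ligase of the RNA sensor RIG-I (-1.41, FDR 0.246), Rnf165 (-0.90, FDR 0.394) and Rnf180 (-1.68, FDR 0.448). Another 10 positive Rnf peaks ranged from 0.71 to 2.01 with FDR of 0.308 or more, and Rnf183 stood at -1.31, per the authors' deposited table. The median distance of Rnf peaks to the start site was 28682 bases, against 23614 bases over all listed peaks.

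TRIM genes held 17 peaks at 14 genes, 10 of them with positive folds (58.8%). Trim33 encodes a ligase of SMAD4, the shared mediator of TGF-beta and BMP signals. Its 2 intergenic peaks, 12799 bases apart, had opposite signs. The levels per the authors' deposited table were 4.59 in knockout and 3.26 in control cells at one (1.32, FDR 0.211) and 1.34 in knockout and 3.33 in control cells at the other (-1.99, FDR 0.21). Trim71, a stem cell regulator that binds mRNA, had 0.52 in knockout and 3.19 in control cells (-2.67, FDR 0.107 per the authors' deposited table), at a peak annotated to the transcript end of Cnot10. Trim37, reported to ubiquitinate histone H2A, had an intronic peak at 1.39 (FDR 0.226 per the authors' deposited table). Both Trim8 peaks lay inside Sufu, a hedgehog pathway gene, at 0.77 (FDR 0.268) and 0.65 (FDR 0.465) per the authors' deposited table. Trim52 stood at 1.05 (FDR 0.336) and Trim7 at -1.17 (FDR 0.285) per the authors' deposited table. Another 4 positive TRIM peaks ranged from 0.65 to 1.80 and 3 negative ones from -1.03 to -0.84 per the authors' deposited table, Trim62 and 1 of the Trim8 peaks included. Of the 17 TRIM peaks, the Trim61 peak was the only one called (5.88%, against 3.02% of all listed peaks).

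HECT ligases were represented by Nedd4 and Nedd4l, regulators of ion channels and receptors, each with 1 positive fold. The Nedd4 peak had 3.08 in knockout and 0.51 in control cells (2.57, FDR 0.263 per the authors' deposited table), and lay in an exon of the neighbouring gene Rfx7. The Nedd4l peak lay within Nedd4l itself, with 4.29 in knockout and 3.11 in control cells (1.18, FDR 0.436 per the authors' deposited table). No Herc, Wwp or Ube3 symbol had a listed peak.

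Ube2 genes held 8 peaks at 7 genes, 5 with positive folds. None was called, against 3.02% of all listed peaks. The strongest signal was in an intron of Ube2cbp, which despite its symbol encodes a ligase that binds a conjugating enzyme, with 6.72 in knockout and 5.76 in control cells (0.95, FDR 0.138 per the authors' deposited table). A second intronic peak of Ube2cbp stood at 1.28 (FDR 0.445 per the authors' deposited table). Ube2e2 had an intronic peak at 1.97 (FDR 0.347 per the authors' deposited table). Ube2l6, the conjugating enzyme for the ubiquitin-like protein ISG15, had a promoter peak with 3.52 in knockout and 2.00 in control cells (1.52, FDR 0.347 per the authors' deposited table). Negative folds per the authors' deposited table were listed for Ube2k (-1.40, FDR 0.322), Ube2s, an enzyme of the anaphase-promoting complex (-1.22, FDR 0.442), and Ube2o (-0.76, FDR 0.532). The Ube2 genes thus showed both signs, with Ube2ql1 the remaining peak, at 1.07 per the authors' deposited table.

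Both cullin peaks had negative folds, and both lay within 2 kb of a start site, where 68.2% of all listed peaks were negative. Cul3, the scaffold that BTB-kelch adaptors bind, had 2.52 in knockout and 4.30 in control cells in its first intron, 1158 bases from the start site (-1.78, FDR 0.113 per the authors' deposited table). Cul2, the scaffold of the VHL complex that degrades HIF, had 4.78 in knockout and 5.53 in control cells at 432 bases (-0.75, FDR 0.512 per the authors' deposited table). BTB-kelch genes held 6 peaks, 2 with positive and 4 with negative folds (33.3% positive, against 62.1% of all listed peaks). Klhl8 stood at -1.66 (FDR 0.167, inside Aff1), Klhl25 at -1.07 and -0.98, Klhl6 at -1.07 and Klhl36 at 2.06 (FDR 0.331) per the authors' deposited table. F-box genes held 18 peaks at 16 genes, 9 of each sign (50% positive, against 62.1% of all listed peaks). Beyond those described, Fbxo28 stood at -1.14 (FDR 0.238), Fbxo33 at 1.86 (FDR 0.294, inside Mia2), Fbxo4 at 0.85 (FDR 0.349) and Fbxo38 at 1.12 (FDR 0.441, inside Htr4) per the authors' deposited table. Fbxw7, the adaptor that marks active Notch and cyclin E for degradation, is named here after its values were seen. It had 3.63 in knockout and 4.88 in control cells in its first intron, 370 bases from the start site (-1.25, FDR 0.473 per the authors' deposited table). Another 5 positive F-box peaks ranged from 0.76 to 1.55 and 4 negative ones, Fbxw7 included, from -1.25 to -0.75 per the authors' deposited table. Neither cullin and no BTB-kelch peak was called, against 3.02% of all listed peaks.

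Positive folds took a larger share of the peaks farther from a start site, among the members and in the whole table. Within 2 kb, 6 of 19 member peaks had positive folds (31.6%, Wilson interval 15.4% to 54%), against 31.8% of 976 listed peaks. From 2 to 50 kb the share was 61.7% of 47 members, against 62.5% of 3790 listed peaks. Beyond 50 kb it was 76.2% of 21 members, against 75.4% of 2120 listed peaks. The members thus sat within 1 percentage point of all listed peaks in each range. Within 2 kb the ligase count was 6 of 16 positive and the deubiquitinase count 0 of 3. None of the 19 was called, against 18 of the 976 (1.84%), and all 19 had an unadjusted p < 0.05 per the authors' deposited table.

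**Figure D3:**
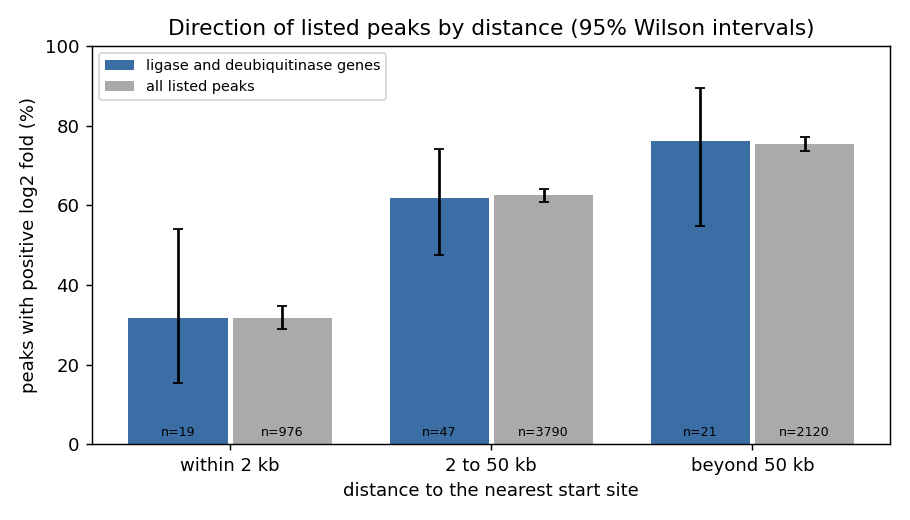
Share of listed peaks with a positive log2 fold in 3 ranges of the listed distance to a start site. Bars are for the ligase and deubiquitinase genes and for all listed peaks, with 95% Wilson intervals that cover counting error only. The member shares (31.6%, 61.7% and 76.2%) lie beside those of all listed peaks (31.8%, 62.5% and 75.4%).

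Of the 87 peaks, 45 overlapped the gene they were assigned to, and 21 of these had positive folds (46.7%). Another 12 lay inside a different protein-coding gene only, with 10 positive, and 30 lay in no protein-coding gene, with 20 positive. All 12 were assigned to ligase-side genes, Rnf148 inside Cadps2 and Trim32 inside Astn2 among them. The median distance to a start site was 8959 bases for the 45 peaks, 27007 for the 12 and 37525 for the 30. This split was made for the members only, so no share over all listed peaks stands beside it. The difference in direction between peaks inside and outside their assigned gene, apart from distance, was not tested.

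**Figure D4:**
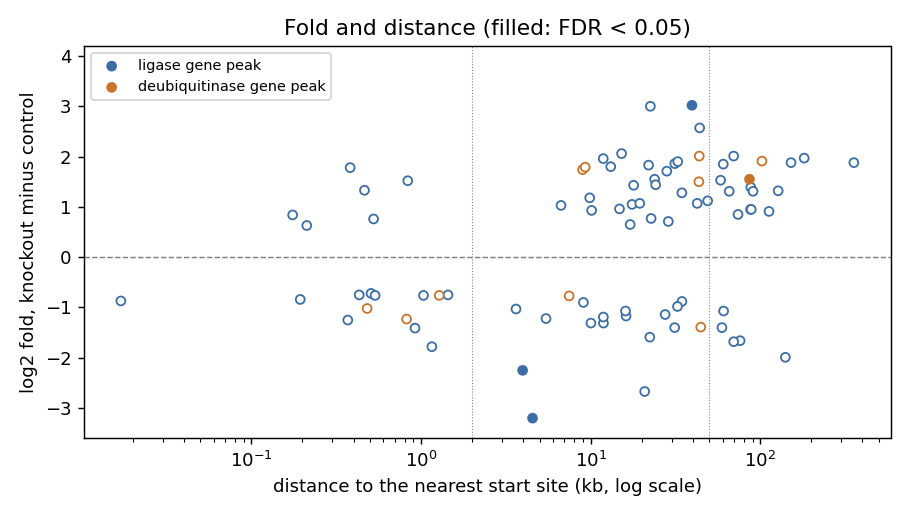
Log2 fold (knockout minus control) of each member peak against its listed distance to a start site in kb on a log scale. Dotted lines lie at 2 and 50 kb. Within 2 kb 13 of 19 points lie below 0, and beyond 50 kb 16 of 21 lie above it.

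Among member genes with a window in the RefSeq promoter table, which spans 250 bases before and 50 after a start site, the peaks of 4 overlapped their own. The Rnf113a2 peak, with 5.74 in knockout and 4.90 in control cells (0.84, FDR 0.465 per the authors' deposited table), also covers the start of its gene, and its window is not used here. The 4 windows are shown because they are the promoter DNA that the listed signal covers. At Fbxo44, an adaptor gene that shares its promoter region with the neighbouring Fbxo2, the levels were 5.72 in knockout and 6.60 in control cells (-0.87, FDR 0.192 per the authors' deposited table). Trim62 had 5.39 in knockout and 6.23 in control cells (-0.84, FDR 0.291 per the authors' deposited table). The Fbxo11 peak listed at 507 bases is given above. It covers 288 of the 300 bases of the window, so the 507 bases are not measured to the start site of that window. Trim30a, one of the interferon-induced mouse TRIM genes, had 6.43 in knockout and 5.81 in control cells (0.63, FDR 0.542 per the authors' deposited table). The windows (RefSeq, GRCm38.p6, each written on the strand of its gene) lie at chr4:148160045-148160344 on the minus strand for Fbxo44, chr4:128883794-128884093 on the plus strand for Trim62, chr17:88064492-88064791 on the minus strand for Fbxo11 and chr7:104446076-104446375 on the minus strand for Trim30a. Capitals mark matches, on either strand, to the GC box GGGCGG, to the ETS motif CCGGAA or to the core of an interferon-stimulated response element, searched as GAAA, any 2 bases and GAAA again.
Fbxo44: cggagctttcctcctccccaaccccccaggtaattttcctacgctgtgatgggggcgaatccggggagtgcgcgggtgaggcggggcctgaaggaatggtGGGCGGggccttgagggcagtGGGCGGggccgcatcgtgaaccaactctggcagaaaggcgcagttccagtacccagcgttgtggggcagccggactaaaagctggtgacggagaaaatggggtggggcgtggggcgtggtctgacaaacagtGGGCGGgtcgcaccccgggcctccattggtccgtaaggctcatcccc
Trim62: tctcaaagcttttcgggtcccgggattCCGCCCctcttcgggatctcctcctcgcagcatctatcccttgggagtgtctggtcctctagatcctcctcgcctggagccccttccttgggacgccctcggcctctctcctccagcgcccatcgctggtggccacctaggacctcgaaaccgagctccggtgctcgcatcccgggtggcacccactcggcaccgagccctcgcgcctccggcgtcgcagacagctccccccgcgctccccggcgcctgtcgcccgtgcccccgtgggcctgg
Fbxo11: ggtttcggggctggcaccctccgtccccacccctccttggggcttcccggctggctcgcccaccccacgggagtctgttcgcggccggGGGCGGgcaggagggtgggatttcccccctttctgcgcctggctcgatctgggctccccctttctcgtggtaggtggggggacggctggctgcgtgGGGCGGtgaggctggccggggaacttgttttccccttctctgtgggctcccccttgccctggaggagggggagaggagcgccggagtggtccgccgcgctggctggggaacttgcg
Trim30a: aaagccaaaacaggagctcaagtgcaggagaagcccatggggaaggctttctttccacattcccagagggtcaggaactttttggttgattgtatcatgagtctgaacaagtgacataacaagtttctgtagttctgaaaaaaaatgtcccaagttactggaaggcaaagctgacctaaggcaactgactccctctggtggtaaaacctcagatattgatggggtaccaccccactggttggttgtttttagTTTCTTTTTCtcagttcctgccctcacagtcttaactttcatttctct

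Of the 4 windows shown, the 3 under peaks with negative folds were rich in G and C, and the Trim30a window was not. Trim30a gave the only window under a positive fold, as the Rnf113a2 window was not used. No link between fold sign and GC content can therefore be read from them. GC content was 65.3% at Fbxo44, 69.7% at Trim62 and 71.7% at Fbxo11, and it was 43.7% at Trim30a, against a median of 52.7% over 32851 windows of the same length. CpG dinucleotides numbered 21 at Fbxo44, 29 at Trim62, 22 at Fbxo11 and 0 at Trim30a, against a median of 7. GC boxes matched 3 times at Fbxo44, 1 time at Trim62 and 2 times at Fbxo11, and 35.7% of all windows hold at least 1. Trim30a held 1 match to the interferon element core, present in 3.44% of windows. The ETS letters, found in 14.9% of windows, did not occur in these 4. The CCAAT box, searched as CCAAT, matched 1 time at Fbxo44 and at none of the other 3 (37.4% of windows), and neither the TATA box TATAAA (13.6%) nor the E-box CACGTG (7.15%) matched in the 4; these are not in capitals. The ETS letters occurred in a second, downstream Fbxo44 window and in the Fbxo2 window, of which the Fbxo44 peak covers 164 and 60 bases, and these are not shown. Such matches are descriptions of the letters, and 4 windows allow no comparison. The remaining peak annotated as a promoter was that of Trim2, whose product is a ligase of neurons, at 1.78 (3.06 in knockout and 1.28 in control cells, FDR 0.443 per the authors' deposited table), beside the Ube2l6 peak given above.

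Absolute folds were smaller where the signal was higher, across the members and the whole table. The Spearman correlation between mean signal and absolute log2 fold was -0.85 over the 87 peaks and -0.84 over all 6891, a description of peaks that share the same libraries and the same threshold on p. Small folds such as those of Usp9x and Trim30a stood at mean signals of 5.92 and 6.15, whereas the large ones of Trim71 and Nedd4 stood at 2.40 and 2.30. Among members at or above the median signal of the table, 3.74, the positive share was 47.7% of 44 (Wilson interval 33.8% to 62.1%), against 63.2% of 3462 listed peaks. These members lay at a median of 12458 bases from a start site, against 20340 bases for the 3462. Below the median signal the share was 69.8% of 43 members (54.9% to 81.4%), against 60.9% of 3429 listed peaks. These differences from the whole table were not tested. Member folds off the floor of either column ran from 0.63 to 3.02 where positive and from -2.67 to -0.72 where negative.

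Of 11 genes with several listed peaks, 6 had positive folds throughout, 1 had negative folds throughout and 4 had both. The 6 were Rnf19a, Rnf32, Trim2, Trim8, Ube2cbp and Usp6nl, the 1 was Klhl25, and the 4 were Fbxo11, Rnf144b, Trim33 and Usp12. The other 62 genes had 1 peak each.

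RNF20 acts on histone H2B. Of a list of 30 genes for enzymes and cofactors that write and erase ubiquitin on histones H2B and H2A, 2 had a listed peak. Neither was called at FDR < 0.05, against 3.02% of all listed peaks. That list does not hold Trim37, described above, and the difference from the share of all protein-coding genes with a listed peak (18.6%) was not tested. They were Usp22, given above, and Rnf2, the Polycomb ligase of histone H2A, with 2.31 in knockout and 3.63 in control cells at 10030 bases (-1.31, FDR 0.517 per the authors' deposited table). Rnf20, Rnf40, Ube2a and Ube2b had no listed peak. Ligases outside the naming rule had a listed peak at 23 of 105 genes, with 12 positive and 14 negative folds. The positive share was 46.2% (Wilson interval 28.8% to 64.5%), against 62.1% of all listed peaks. Their median log2 fold was -0.81, against 0.93 for all listed peaks, and the difference was not tested. None of the 26 peaks was called, against 3.02% of all listed peaks. Among the 23 genes were Birc6, an apoptosis inhibitor, and Spop, a Cul3 adaptor, both at the knockout floor of 0.13. Control cells had 3.34 at Birc6 (FDR 0.0708) and 3.02 at Spop (FDR 0.0918), per the authors' deposited table. Neurl1b, a ligase of Notch ligands, had 2 peaks, at -1.73 (FDR 0.264) and -0.99 (FDR 0.517) per the authors' deposited table. Mycbp2 stood at 1.56 (FDR 0.237 per the authors' deposited table). Peli2 had 1 peak with 2.88 in knockout and a control level of 0 (FDR 0.237), and 1 at -1.14 (FDR 0.417), per the authors' deposited table. The genes named are examples of the 23. Deubiquitinases outside the rule had peaks at 4 of 26 genes, 3 positive and 2 negative, and none called, against 3.02% of all listed peaks. They included Tnfaip3, the NF-kappaB inhibitor A20, with 7.24 in knockout and 6.57 in control cells (0.67, FDR 0.33 per the authors' deposited table). None of 8 genes for ubiquitin and ubiquitin-like activating enzymes had a listed peak.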

How the data were processed

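ATAC-seq peaks of retinal endothelial cells were read from 1 table of 6891 peaks, deposited as text and as a workbook. Numbers were equal in all 6891 rows of both copies, 4 gene names differed, none of them a member, and names were taken from the workbook. The authors deposited the mean, knockout and control signal and the fold as log2 values, and for each peak an unadjusted p-value and an FDR. In every row knockout minus control gave the deposited fold, to within 0.011. Per the submitters' processing notes, the build is mm10 and the tools include MACS2, edgeR with DiffBind, ChIPseeker, Bowtie2, Picard 1.119 and Trimmomatic 0.36, with no role stated. The sources used here do not give read shifting, peak set, scaling or depth per library.

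The members, gene lists and comparisons were chosen with earlier results of these data known. Calls are peaks whose FDR, as the authors gave it, was < 0.05, a threshold set here. Lists are described by counts, medians and Wilson intervals (scipy 1.17.1, Python 3.11.15), beside the same over all listed peaks, with no test of their own. The summary code was tested on simulated data. All 73 member symbols matched the RefSeq gene table of GRCm38.p6, which gave gene spans. Peaks named were those called, promoter peaks, peaks at a column's lowest value, up to 4 of smallest FDR per class and sign, genes with 3 peaks and the histone list. Members outside that rule are given by range or count, or named to complete a set. Motifs and distance ranges were chosen after the values were seen. Of the 4 libraries, 2 were unassigned and no values per library were used.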

Additional observations from a re-analysis of the deposited data

How the results depend on the processing

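Of 67 alternative values, 48 stayed within the 95% interval of the share or median reported, with no median changing sign, or within 1.5 times the count. Some of the 48 could not differ, so that number is no measure of stability. The text copy holds the same member names, the ligase side holds no Usp6nl peak, and the deubiquitinase side holds no Ube2 gene or substrate adaptor. The count of 4 called peaks was 2 at or above the median signal, 2 inside the assigned gene and 2 without Ube2 genes and substrate adaptors. It was 0 at FDR < 0.01 and 0 within 2 kb of a start site (all members have unadjusted p < 0.05), and 5 at FDR < 0.1. The positive share of members was 47.7% at or above the median signal, 46.7% inside the assigned gene and 31.6% within 2 kb. The ligase share was 37.5% within 2 kb, and the deubiquitinase share was 20% at or above the median signal and 0% within 2 kb. The ligase median log2 fold was 1.23 at an absolute fold of at least 1, and turned to -0.04 inside the assigned gene and to -0.75 within 2 kb. The deubiquitinase median turned to -0.77 at or above the median signal, -0.76 within 50 kb, -0.77 inside the assigned gene, -0.76 without Usp6nl and -1.02 within 2 kb. It was 0.37 with FDR under 0.5, against 1.50 for all 11 peaks, and the deubiquitinase share was 28.6% inside the assigned gene, against 54.5%; both lie within the wide intervals of 11 peaks. Apart from the FDR thresholds of 0.01 and 0.1, which change the call and keep all 87 peaks, these settings keep fewer peaks, and no other cause was tested. The distance ranges of 2 kb and the removal of Usp6nl were added after seeing the data. No paired analysis was possible because the table gives no values per library, and for the same reason no library could be left out.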

Other observations

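Beyond the members, 18 listed peaks lay inside a ligase or deubiquitinase gene but were not assigned to it. Of these, 8 had positive and 10 had negative folds, while 62.1% of all listed peaks had positive folds. They fell in 17 genes. The peak inside Rnf169 carried no assigned gene, and the others were assigned to another gene. Of the 18 peaks, 1 passed FDR < 0.05, against 3.02% of all listed peaks. It lay inside Trim12a, a mouse TRIM gene, at the annotated promoter of Gm15133, and had 0.52 in knockout and 3.47 in control cells (-2.95, FDR 0.0466 per the authors' deposited table). Inside Rnf157, a peak assigned to Foxj1 stood at the knockout floor of 0.13, against 3.23 in control cells (FDR 0.0754 per the authors' deposited table). Inside Klhl29, a peak assigned to Atad2b had 3.51 in knockout and 0.51 in control cells (3.00, FDR 0.111 per the authors' deposited table). A peak of the Wwp2 gene, a HECT ligase, was assigned to Mir140 and had 3.73 in knockout and 2.15 in control cells (1.58, FDR 0.475 per the authors' deposited table). These genes were picked after their values were seen.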
